A study of Caenorhabditis elegans with 6 samples.

Results

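Genes of Caenorhabditis elegans whose symbol starts with bath-, math- or btb- were described in wild-type worms given 50 µM FUDR (5-fluoro-2′-deoxyuridine, a nucleoside analogue whose product blocks thymidylate synthase) and in untreated wild-type worms labelled OP50, the name of the usual bacterial food strain. The symbol alone chose the members, and 90 of the 46926 genes in the table met it. There were 36 bath- genes, 37 math- genes and 17 btb- genes, all annotated as protein-coding in Ensembl, although RefSeq lists bath-23 as a pseudogene. Both groups were labelled as whole worms of genotype WT at age L4, the last larval stage, with FUDR 50uM as the treatment in 3 libraries and Untreated in the other 3. Whether the 3 libraries of a group are separate cultures is not labelled, and the p-values therefore cover the variation among these libraries, which may be technical.

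The MATH domain and the BTB domain are protein-interaction modules. A BATH protein carries both: in the best studied worm example, MEL-26, the BTB domain binds the cullin CUL-3 and the MATH domain binds the protein to be marked with ubiquitin, so that such proteins act as interchangeable substrate adaptors of CUL-3 ubiquitin ligases. In C. elegans these families, like the F-box adaptors of the CUL-1 ligases, are large, and many members sit side by side on chromosome II with no assigned function. The math-33 gene is an exception, since it encodes a deubiquitinase orthologous to human USP7.

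The libraries held between 61312034 and 84750980 gene counts in FUDR and between 66005990 and 99234226 in OP50, so 3 counts correspond to between 0.0354 and 0.0489 CPM in FUDR and between 0.0302 and 0.0455 CPM in OP50, for counting error only. Levels below are TMM-scaled CPM (read counts relative to library size), and a gene is called when its edgeR quasi-likelihood p, adjusted by Benjamini-Hochberg over all 17022 tested genes, is under 0.05. The same fit called 41% of all tested genes, 20% higher and 21% lower in FUDR. Scaling mattered: the median log2 fold change of all tested genes was 0.05 under TMM, 0.20 under upper quartile scaling and 0.28 if counts were divided by library size alone (library size only), and directions below are relative to TMM. Every gene of the 8 lists of germline and tissue markers was detected well enough to be tested, as whole worms would give. Of those lists, the germline list had 11 of 12 genes lower in FUDR, with summed levels of 2133 to 2843 CPM in FUDR against 4072 to 4204 CPM in OP50. The oocyte list had 9 of 10 lower, with sums of 1947 to 2625 CPM in FUDR against 5211 to 5404 CPM in OP50. Of 10 genes each, the epidermis list had 4 lower, the neuron list 4 higher, the pharynx list 2 higher, the intestine list 2 higher and 3 lower and the sperm list 1 higher and 1 lower, and no body muscle gene was called (sums of 9427 to 17260 CPM in FUDR against 15470 to 16820 CPM in OP50). In whole worms, fewer cells of a type and less RNA per cell cannot be told apart.

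Of the 90 members, 75 had enough counts to be tested. In FUDR 20 of them (26.7%) rose and 12 (16.0%) fell, beside 20% and 21% of all tested genes, and the median log2 fold change of the tested members was 0.01 against 0.05 for all tested genes. With upper quartile scaling 27 rose and 8 fell, beside 29.2% and 14.6% of all tested genes. With no scaling beyond library size 30 rose and 7 fell, beside 34.2% and 11.3% of all tested genes. All 32 called members had FUDR libraries that did not overlap the OP50 libraries. Over all tested members 27 lay wholly above and 18 wholly below OP50, where 28.0% and 26.7% of all tested genes did. A change of at least 2-fold was called upward in 7 members and downward in 4, beside 7.92% and 1.82% of all tested genes. The other 43 members were not called, with log2 fold changes between −1.37 and 1.05.

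The families differed in their counts, though no test compared them. Among 33 tested bath- genes 12 rose (36.4%) and 5 fell (15.2%), beside 20% and 21% of all tested genes. Among 26 tested math- genes 5 rose (19.2%) and 2 fell (7.69%), and among 16 tested btb- genes 3 rose (18.8%) and 5 fell (31.2%). The math- and btb- rises were thus near the share of all tested genes. The bath- counts moved little when 1 library was left out, with 10 to 12 rises and 4 to 5 falls. Of the math- genes 8 rose without FUDR replicate 1 and 3 without FUDR replicate 3 or OP50 replicate 1 or 2, and 4 fell without FUDR replicate 3. Of the btb- genes 0 rose without OP50 replicate 1 and 1 without OP50 replicate 2 or 3, 3 fell without FUDR replicate 2 or 3 or OP50 replicate 1 or 2, and 2 fell without OP50 replicate 3. With library size only, the counts were 14 rises and 3 falls for bath-, 11 and 2 for math- and 5 and 2 for btb- genes. In that setting 34.2% of all tested genes rose and 11.3% fell.

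Summed over a family, transcripts of bath- genes stood at 542.6, 548.9 and 517.8 CPM in the FUDR libraries, against 608.4, 606.9 and 606.3 CPM in the OP50 libraries. For math- genes the sums were 379.9, 355.6 and 312.1 CPM in FUDR, against 439.6, 407.7 and 414.8 CPM in OP50. For btb- genes they were 92.1, 98.2 and 100 CPM in FUDR, against 93.6, 92.7 and 94.2 CPM in OP50. The bath- and math- sums were thus lower in every FUDR library, while the btb- sums overlapped. A few genes set these sums: the 5 most abundant members held 58.8% of the summed level of all 90, and math-33 alone held 63.7% of the math- sum.

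**Figure D1:**
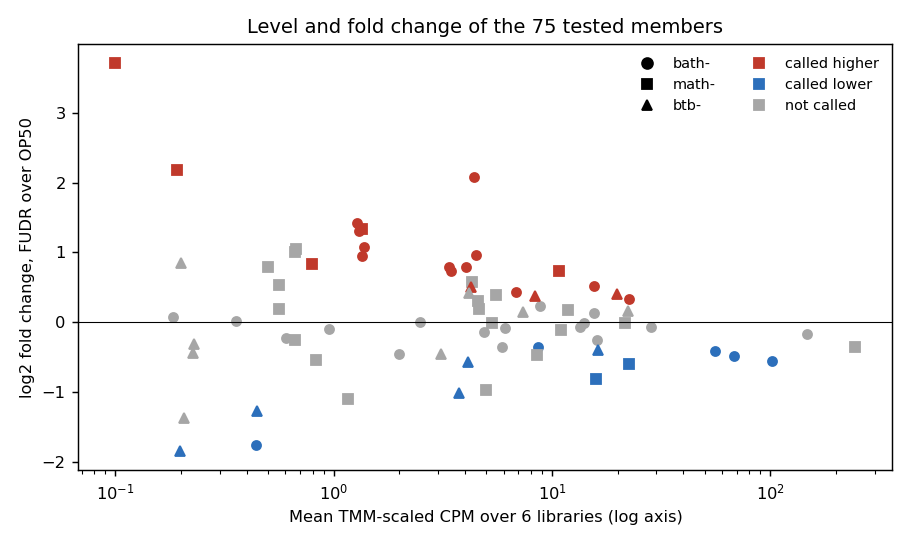
Each point is 1 of the 75 tested members, placed by its mean TMM-scaled CPM over the 6 libraries (x, log axis) and its log2 fold change of FUDR over OP50 (y), with the marker giving the family and the colour the call. The 20 members that rose lie at or below 22.4 CPM, and the 5 members over 40 CPM all have a negative fold change.

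The rises were concentrated at low and middle levels and the falls reached further up. Members that rose had mean levels from 0.1 to 22.4 CPM with a median of 3.74 CPM, and members that fell had levels from 0.198 to 102 CPM with a median of 12.2 CPM. All genes of the table showed a dependence on level as well: 27.7% of genes at 1 to 10 CPM were called higher and 6.80% lower, whereas 16.8% of genes at 10 to 100 CPM were called higher and 33% lower. At 1 to 10 CPM 13 of 33 members rose and 3 fell, and at 10 to 100 CPM 4 of 18 rose and 5 fell. At 100 CPM and over 1 of 3 members fell, beside 9.06% of genes called higher and 50.2% called lower. Under 1 CPM 3 of 21 tested members rose and 3 fell, beside 20.5% and 2.45% of all genes at that level.

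The 5 members with a mean of at least 40 CPM (bath-40, bath-41, bath-42, bath-44 and math-33) were lower in every FUDR library than in any OP50 library, as were 56.8% of all 4518 tested genes at or above that level. Per kilobase of exon, bath-42 was the most abundant bath- gene, with a mean level over the 6 libraries of 86.4 CPM per kilobase, followed by bath-40 with 68.6 and bath-41 with 45.6 CPM per kilobase. The deubiquitinase gene math-33 had 58.0 CPM per kilobase, far above math-26 (8.74) and math-20 (8.49), the next math- genes. Reads of the exon sequence that math-26 shares with math-3 may be missing from its count, so its level may be too low. Among btb- genes the highest were btb-14 (20.9 CPM per kilobase), btb-20 (19.8) and btb-19 (16.2).

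The bath-40 gene (chromosome I, 14647782 to 14651288; all positions are in WBcel235) had 93.2, 84.1 and 71.1 CPM in FUDR, against 122.1, 118.7 and 122.8 CPM in OP50. Its 3 FUDR libraries lay apart from each other, and all of them lay below the tight OP50 values. It fell by 0.55 ± 0.105 on the log2 scale (SE, edgeR adjusted p = 0.00352). The bath-41 gene (chromosome III, 6720415 to 6722258) had 55.2, 60.1 and 55.2 CPM in FUDR, against 82.2, 79.4 and 76.0 CPM in OP50, which is −0.48 ± 0.0773 on the log2 scale (edgeR adjusted p = 0.00164). The bath-44 gene (chromosome II, 7394955 to 7397351) had 49.4, 48.0 and 46.2 CPM in FUDR, against 66.8, 64 and 60.4 CPM in OP50 (−0.41 ± 0.0766, edgeR adjusted p = 0.00313). Both thus fell by about the same log2 amount, and bath-44 was not called with library size only (−0.19, adjusted p = 0.0984). The exons of bath-41 overlap those of F37A4.3 on the other strand, and reads of the pair may not be told apart.

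The most abundant bath- gene did not pass the test. The bath-42 gene (chromosome III, 8161455 to 8163383) had 141, 141 and 133 CPM in FUDR, against 152, 157 and 158 CPM in OP50, and its −0.17 ± 0.0775 on the log2 scale (edgeR adjusted p = 0.11) became 0.06 with library size only. The math-33 gene (chromosome V, 11113907 to 11118824) had 252, 220 and 174 CPM in FUDR, against 283, 269 and 274 CPM in OP50. The FUDR libraries spread widely and all lay below OP50, with a log2 fold change of −0.36 ± 0.131 that narrowly missed the threshold (edgeR adjusted p = 0.0553). It was called lower by DESeq2 (adjusted p = 0.0248), limma-voom (0.0465), with RLE scaling (0.0482), without a count filter (0.0258), with the replicate block (0.0455) and without FUDR replicate 1 (0.00822) or 3 (0.0461). Its exons overlap scb-1 on the other strand. The part of the germline and oocyte markers' lower levels in these falls was not tested.

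**Figure D2:**
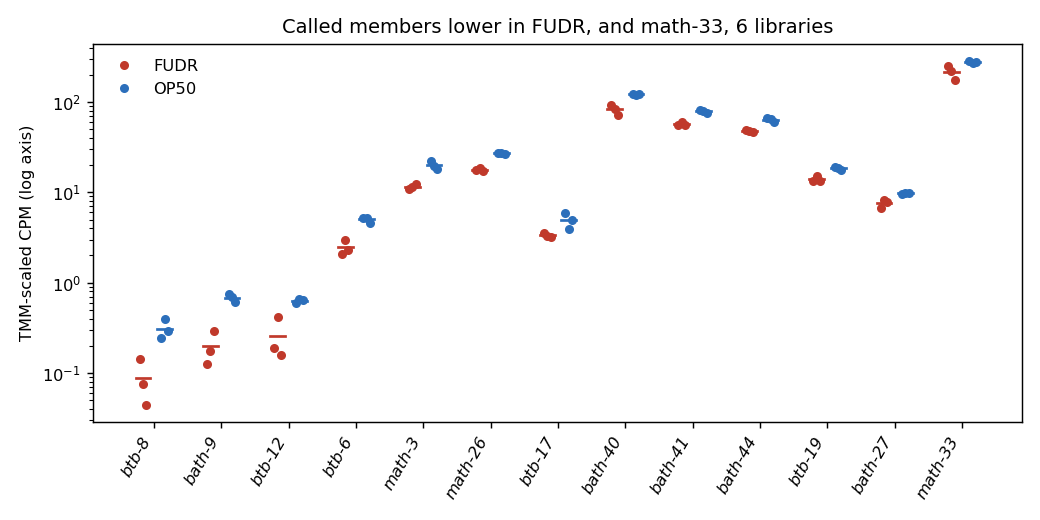
Points are the 3 FUDR and the 3 OP50 libraries of the 12 members called lower and of math-33, in TMM-scaled CPM (log axis), with lines at the group means. The FUDR libraries of every gene shown lie below its OP50 libraries, and for math-33 they spread from 174 to 252 CPM.

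Next to one another on chromosome II, 2 long math- genes fell. The math-3 gene (1772085 to 1778542) had 10.8, 11.3 and 12.3 CPM in FUDR, against 22.4, 19.8 and 18.3 CPM in OP50, the smallest adjusted p of any member (−0.82 ± 0.11, edgeR adjusted p = 0.000734). The math-26 gene (1771647 to 1774942) had 17.8, 18.4 and 17.4 CPM in FUDR, against 27, 27.6 and 26.5 CPM in OP50 (−0.59 ± 0.081, edgeR adjusted p = 0.000778). Both genes are on the same strand and share exon sequence, so reads of the shared part cannot be told apart. Such reads may be missing from both counts, and the 2 falls were not taken as independent observations. Their neighbour math-4 did not differ beyond its spread, with 21.5 ± 1.72 CPM in FUDR and 21.8 ± 1.36 CPM in OP50 (SD, n = 3 each; log2 fold change −0.02, edgeR adjusted p = 0.897).

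The larger falls were in low btb- and bath- genes. The btb-6 gene (chromosome II, 1715303 to 1716497) had 2.1, 3 and 2.3 CPM in FUDR, against 5.20, 5.24 and 4.59 CPM in OP50, which is −1.02 ± 0.169 on the log2 scale (edgeR adjusted p = 0.00184). Beside it, btb-8 (1722770 to 1724186) had 9, 7 and 4 counts in FUDR, against 23, 24 and 21 counts in OP50, so the FUDR counts were all lower in spite of overlapping library sizes (−1.84 ± 0.522, edgeR adjusted p = 0.0211). Over the group totals of 20 counts in FUDR and 68 in OP50, the ratio of FUDR to OP50 was 0.275 (95% interval 0.158 to 0.458, exact binomial, counting error only). The outer genes of that run were not called: btb-7 was at −0.46 (edgeR adjusted p = 0.0681, DESeq2 adjusted p = 0.0416) and btb-9 at 0.15 (0.44). The btb-12 gene (1655217 to 1656229) had 0.191, 0.422 and 0.157 CPM in FUDR, against 0.589, 0.661 and 0.646 CPM in OP50 (−1.27 ± 0.414, edgeR adjusted p = 0.0362). The bath-9 gene (3377089 to 3378834) had 0.127, 0.173 and 0.291 CPM in FUDR, against 0.746, 0.694 and 0.605 CPM in OP50 (−1.76 ± 0.375, edgeR adjusted p = 0.00606), and its exons overlap Y49F6C.2. The btb-8 call was lost without FUDR replicate 2 or 3 or OP50 replicate 2 or 3 (adjusted p between 0.0508 and 0.0805). The btb-12 call was lost when any library but FUDR replicate 2 was left out (between 0.0679 and 0.0872), and with upper quartile scaling (0.0521) or library size only (0.0678).

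Smaller falls were called in bath-27 (−0.35 ± 0.114), btb-17 (−0.57 ± 0.171) and btb-19 (−0.40 ± 0.0974), with edgeR adjusted p of 0.0358, 0.0265 and 0.0107. The bath-27 gene, which together with bath-1 is described although the rule for named genes did not pick it, had 6.73 to 8.20 CPM in FUDR against 9.54 to 9.90 CPM in OP50, and its exons overlap lido-14. Its call was lost when any library but FUDR replicate 3 was left out (adjusted p between 0.0654 and 0.102), and the btb-17 call without FUDR replicate 2 or OP50 replicate 1 or 3 (between 0.0663 and 0.0891). None of the 3 was called with upper quartile scaling or library size only.

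The largest well-covered rise was in bath-47 (chromosome II, 1601811 to 1604621). It had 7.99, 6.50 and 6.80 CPM in FUDR, against 2.51, 1.17 and 1.25 CPM in OP50. All FUDR libraries were far above the highest OP50 library, and OP50 library 1 stood above the other two. The log2 fold change was 2.09 ± 0.279, or 4.24-fold (edgeR adjusted p = 0.00074), and 2.54 without OP50 replicate 1. Upstream on the same strand, bath-46 (1597906 to 1599488) had 1.58, 1.86 and 2.21 CPM in FUDR, against 1.12, 0.645 and 0.879 CPM in OP50 (1.08 ± 0.251, edgeR adjusted p = 0.00895). Between them on the other strand, bath-26 did not pass the test (−0.09, edgeR adjusted p = 0.881), and it turned to 0.66 without OP50 replicate 1 (adjusted p = 0.105). The end of bath-26 overlaps that of bath-46, and bath-47 likewise overlaps bath-33, which had at most 2 counts in any library. Beyond bath-47 the same stretch holds F-box genes that were higher in FUDR, among them fbxa-166, with 1.49 CPM in FUDR against 0.261 CPM in OP50, and fbxa-158, with 4.93 CPM in FUDR against 0.181 CPM in OP50. Further along, the F-box gene fbxb-15 was not called (−0.27, edgeR adjusted p = 0.583).

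**Figure D3:**
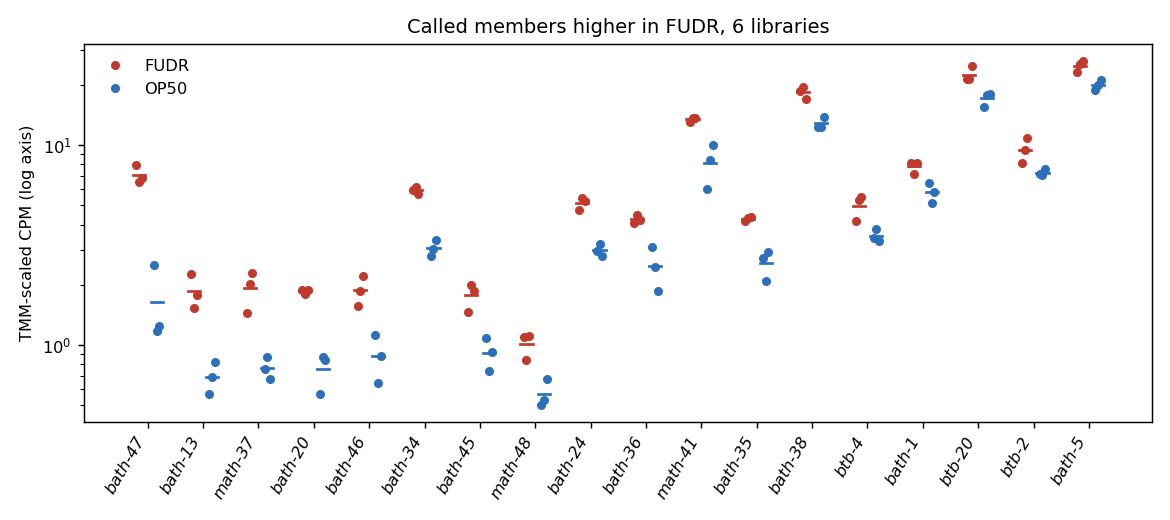
Points are the 3 FUDR and the 3 OP50 libraries of 18 of the 20 members called higher, in TMM-scaled CPM (log axis), ordered by fold change, with lines at the group means. The groups do not overlap for any gene shown, the widest gap is in bath-47, and math-31 and math-1 are left out because of OP50 libraries with 0 counts.

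A set of low bath- and math- genes more than doubled, all on chromosome II. The bath-13 gene (2520842 to 2522060) had 2.28, 1.54 and 1.77 CPM in FUDR, against 0.568, 0.694 and 0.824 CPM in OP50 (1.42 ± 0.244, edgeR adjusted p = 0.0022). The bath-20 gene (2040276 to 2042547) had 1.89, 1.81 and 1.88 CPM in FUDR, against 0.568, 0.876 and 0.838 CPM in OP50 (1.30 ± 0.224, edgeR adjusted p = 0.00223). The math-37 gene (2116884 to 2122191) had 1.45, 2.02 and 2.30 CPM in FUDR, against 0.757, 0.876 and 0.673 CPM in OP50 (1.33 ± 0.238, edgeR adjusted p = 0.00265), and its exons overlap the chemoreceptor gene srh-195. In all 3 genes the lowest FUDR library was well above the highest OP50 library, and each kept its call when any 1 library was left out.

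The 2 largest fitted rises rest on few reads. The short math-31 gene (1912450 to 1912841) had 9, 17 and 21 counts in FUDR, against 2, 1 and 0 counts in OP50. Over 47 counts in FUDR and 3 in OP50 the scaled ratio was 14.6 (95% interval 4.71 to 73.5, exact binomial, counting error only). Its edgeR adjusted p was 0.00478, and the fitted log2 fold change of 3.71 became 4.37 without OP50 replicate 1. The math-1 gene (2046053 to 2046656) had 16, 33 and 30 counts in FUDR, against 10, 6 and 0 counts in OP50, a ratio of 4.61 (95% interval 2.67 to 8.46, edgeR adjusted p = 0.0347). The OP50 libraries of math-1 were uneven, and its call was lost without FUDR replicate 2 or 3 or OP50 replicate 1 or 2 (adjusted p between 0.0502 and 0.107) and with the replicate block.

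Outside the chromosome II run, bath-34 and bath-35 lie next to each other on chromosome I and rose together. The bath-34 gene (12750036 to 12752105) had 5.97, 6.18 and 5.69 CPM in FUDR, against 2.79, 3.01 and 3.37 CPM in OP50 (0.96 ± 0.133, edgeR adjusted p = 0.000828). The bath-35 gene (12758186 to 12759577) had 4.19, 4.30 and 4.35 CPM in FUDR, against 2.71, 2.10 and 2.93 CPM in OP50 (0.73 ± 0.16, edgeR adjusted p = 0.00695). For both genes the FUDR libraries were close together and above every OP50 library. Members that stand alone also rose: bath-36 on chromosome V at 0.78, bath-45 at 0.95 and bath-38 at 0.52 on chromosome II, with edgeR adjusted p of 0.0118, 0.00979 and 0.00386. The exons of bath-36 overlap those of Y75B12B.16 and those of bath-38 overlap F52H3.11, so reads of these genes may be lost or split. The bath-38 gene was the second most abundant bath- gene that rose, with 18.4 ± 1.26 CPM in FUDR and 12.9 ± 0.878 CPM in OP50 (SD, n = 3 each).

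The remaining called rises had log2 fold changes of 0.33 to 0.84. The math-41 gene had 13, 13.7 and 13.7 CPM in FUDR, against 6.05, 8.40 and 9.96 CPM in OP50 (0.73 ± 0.169, edgeR adjusted p = 0.00872). The OP50 libraries were spread out and still all lower. The bath-24 gene rose by 0.79 and math-48 by 0.84, while bath-1 (0.43), bath-5 (0.33), btb-4 (0.51) and btb-2 (0.38) rose by less than 1.5-fold. Of these, btb-2 lay nearest the threshold, with 8.16 to 10.8 CPM in FUDR against 7.08 to 7.60 CPM in OP50 (edgeR adjusted p = 0.0416). The uncalled gene nearest the threshold was math-39, with 4.52 to 5.93 CPM in FUDR against 2.53 to 4.41 CPM in OP50 (0.58, edgeR adjusted p = 0.0534). It was called higher by DESeq2 (adjusted p = 0.0337), limma-voom (0.0365), with upper quartile scaling (0.0213) or library size only (0.011), without a count filter (0.034), with the replicate block (0.0341) and without FUDR replicate 1 (0.0428) or OP50 replicate 3 (0.0218). Several of these calls depended on single libraries. The bath-1 call was lost without FUDR replicate 1 or OP50 replicate 2 or 3 (adjusted p between 0.06 and 0.109), and the bath-5 call without FUDR replicate 2 or OP50 replicate 1 or 2 (between 0.0753 and 0.0809). The math-48 call was lost without FUDR replicate 1 or 3 or OP50 replicate 1 or 2 (between 0.0724 and 0.0846). The btb-4 and btb-2 calls were each lost when any library but FUDR replicate 1 was left out (between 0.0507 and 0.0973 for btb-4, and between 0.0813 and 0.127 for btb-2). In all, 21 of the 32 called members kept their call whichever library was left out, 13 of the rises and 8 of the falls.

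One adjacent pair went in opposite directions. On chromosome II, btb-19 (14520996 to 14522137) and btb-20 (14522385 to 14523522) lie on the same strand with 247 bases between them. The btb-19 gene had 13.4, 15.3 and 13.3 CPM in FUDR, against 19.1, 18.6 and 17.9 CPM in OP50. The btb-20 gene had 21.3, 21.3 and 24.9 CPM in FUDR, against 15.6, 17.7 and 18 CPM in OP50. The btb-20 level was above that of btb-19 in every FUDR library, while in OP50 it was below in replicates 1 and 2 and nearly equal in replicate 3. Their log2 fold changes were 0.40 ± 0.105 for btb-20 (edgeR adjusted p = 0.0156) and −0.40 ± 0.0974 for btb-19 (0.0107). Leaving out OP50 replicate 1 ended the btb-20 call (adjusted p = 0.0625), and the btb-19 call with upper quartile scaling or library size only.

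Most members shared a chromosome. Of the 90 genes 77 (85.6%) lie on chromosome II, and 70 of these between 1023693 and 3733181. Counting members at most 20 kb apart as neighbours, 68 fell into 13 groups of 2 to 18 genes and 22 stood alone. In the left part of chromosome II 13 of 57 tested members rose (22.8%) and 8 fell (14%), against 88 and 73 of the 443 other tested genes there (19.9% and 16.5%). Of the 18 tested members elsewhere 7 rose (38.9%) and 4 fell (22.2%), beside 20% and 21% of all tested genes.

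Neighbours did not always move together. Among 40 adjacent pairs with both genes tested, 4 pairs rose together, 2 fell together, 1 was split in direction, 20 had 1 gene called and 13 had neither. The pairs that rose together were bath-34 with bath-35, bath-5 with btb-4, bath-20 with bath-24 and bath-24 with math-1. Pairs were formed from members only, and other genes may lie between them. Between bath-20 and bath-24 lies the pseudogene btb-3, which was not called (−0.08, edgeR adjusted p = 0.831). In the group of 13 genes from math-44 to math-1, 6 of 12 tested members rose: bath-1, bath-5, btb-4, bath-20, bath-24 and math-1. Between them bath-3 (−0.09) and bath-19 (−0.36) did not pass the test, though bath-19 was called lower without FUDR replicate 1 (edgeR adjusted p = 0.0304) and in DESeq2 (0.0324). The largest group, 18 genes from math-15 to bath-2, had 1 rise (math-31) and 9 members too low to test. From math-41 to bath-13, a stretch marked out after the values were seen, 11 of 30 tested members rose, and 8 had negative fold changes that were not called. Of the 110 other tested genes there 26 rose and 22 fell.

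**Figure D4:**
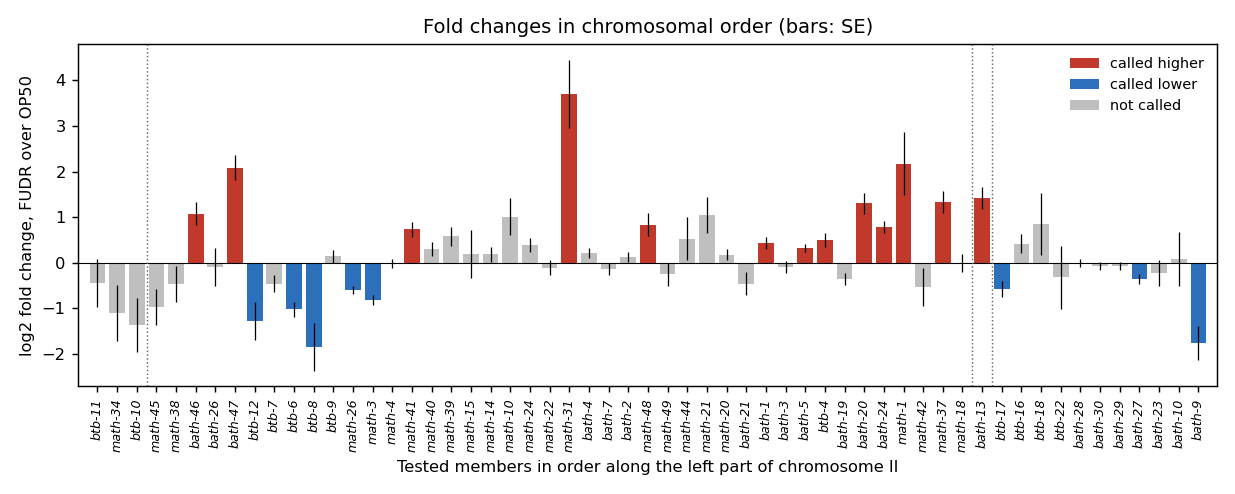
Bars are the log2 fold changes of FUDR over OP50 for the 57 tested members in the left part of chromosome II, in chromosomal order, with error bars of 1 SE, and dotted lines mark the widest gaps between members. Called rises lie in bath-46, bath-47 and the middle of the row, and called falls lie to either side.

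One library stood apart for a few members. In OP50 library 1, 6 of 75 tested members were more than 2-fold above both other OP50 libraries, as were 1.55% of all tested genes, and in each of the other 5 libraries 0 to 2 members were. The 6 were math-34, math-45, math-38, bath-26, bath-47 and btb-18, of which math-38, bath-26 and bath-47 lie in the same group of neighbours as bath-46. The math-38 gene had 6.79, 8.34 and 6.46 CPM in FUDR, against 17.3, 6.13 and 6.18 CPM in OP50. The math-45 gene had 3.56, 3.28 and 3.29 CPM in FUDR, against 11.6, 4.41 and 3.81 CPM in OP50. The math-34 gene had 1, 0.758 and 0.493 CPM in FUDR, against 3.25, 0.827 and 0.618 CPM in OP50. In each case OP50 library 1 was far above the other OP50 libraries, and none of the 3 was called. The FUDR libraries of math-45 lay below all OP50 libraries, and it was called lower by DESeq2 (−0.99, adjusted p = 0.0134) and by edgeR without OP50 replicate 3 (−1.26, adjusted p = 0.0252). Without OP50 library 1 the log2 fold changes were 0.22 in place of −0.46 for math-38, −0.28 in place of −0.98 for math-45 and 0.04 in place of −1.10 for math-34. None of these was called (edgeR adjusted p of 0.29, 0.198 and 0.937). Also without OP50 library 1, bath-26 stood at 0.66 in place of −0.09 and btb-18 at 2.12 in place of 0.85, neither of them called (edgeR adjusted p of 0.105 and 0.054).

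**Figure D5:**
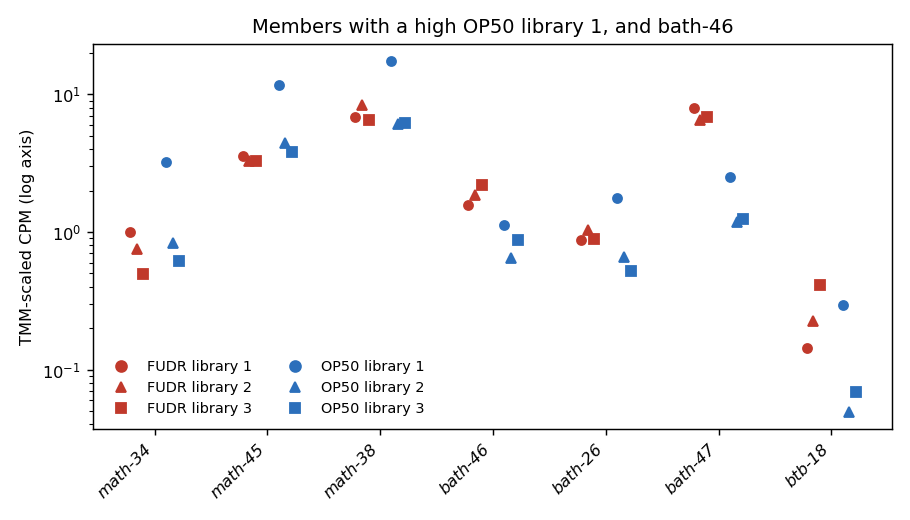
Points are single libraries in TMM-scaled CPM (log axis), FUDR left of OP50, with the marker giving the library number. OP50 library 1 is more than 2-fold above the other OP50 libraries for every gene but bath-46, and it is below all FUDR libraries for bath-46 and bath-47.

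The 15 untested members were close to silent in both groups. They were 11 math-, 3 bath- and 1 btb- genes, none with more than 21 counts in a library, and math-13 had 0 counts in all 6. Pooled over the 15 genes there were 165 counts in FUDR and 63 in OP50. The btb-5 gene had 8, 9 and 14 counts in FUDR, against 3, 1 and 2 counts in OP50, and bath-25 had 10, 2 and 10 counts in FUDR, against 2, 1 and 0 counts in OP50. Both were singled out after their values were seen. Their groups did not overlap in btb-5, while in bath-25 the second FUDR library had no more counts than the first OP50 library.

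RefSeq gives family symbols to 24 more genes of the table that have no symbol in the Ensembl names, matched by chromosome, start and end, and lists all of them as pseudogenes. Of the 16 with enough counts, bath-22 rose (0.54 ± 0.16, edgeR adjusted p = 0.0244) and math-35 fell (−0.49 ± 0.146, edgeR adjusted p = 0.0259). That is 6.25% each, beside 20% and 21% of all tested genes. No rise was called without FUDR replicate 2 or OP50 replicate 1. No fall was called without FUDR replicate 1 or 2 or OP50 replicate 2 or 3, nor with upper quartile scaling or library size only. The bath-22 pseudogene averaged 3.96 CPM in FUDR and 2.73 CPM in OP50, and math-35 averaged 6.15 CPM in FUDR and 8.65 CPM in OP50. The most abundant was math-27, with 15 CPM in FUDR and 17.9 CPM in OP50, which lies between math-28 and math-26 and was not called (−0.25, edgeR adjusted p = 0.148).

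Genes listed for the machinery of CUL-3 ligases, most of them not particular to CUL-3, were measured in the same libraries. Of 15 measured genes of the CUL-3 ligase machinery 9 fell and ned-8 (0.29) and csn-2 (0.26) rose, with a median log2 fold change of −0.29 against 0.05 for all tested genes. These genes lay at 44 to 633 CPM, levels at which falls were common in the whole table (33% of genes at 10 to 100 CPM and 50.2% at 100 CPM and over). Without OP50 replicate 2 the counts were 5 falls and 1 rise. Without FUDR replicate 3 there was 1 rise, and no rise was called without FUDR replicate 2 or OP50 replicate 1 or 3. With library size only 2 fell and 3 rose, beside 11.3% and 34.2% of all tested genes, with a median of −0.06 against 0.28. The cullin gene cul-3 averaged 188 ± 18.1 CPM in FUDR and 255 ± 7.24 CPM in OP50 (SD, n = 3 each), and its fall of −0.44 ± 0.0962 on the log2 scale (edgeR adjusted p = 0.00663) was not called with library size only (−0.22, adjusted p = 0.061). The NEDD8-conjugating enzyme gene ubc-12 (−0.51), the cullin exchange factor gene cand-1 (−0.59) and the COP9 signalosome gene csn-6 (−0.38) fell as well, with edgeR adjusted p of 0.00106, 0.00456 and 0.00805, and csn-6 was not called with library size only.

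Among 10 measured BTB or MATH genes with other names, mel-26 and hpo-9 fell (20%), near the 21% of all tested genes that fell. The mel-26 gene averaged 92.7 ± 5.65 CPM in FUDR and 122 ± 3.72 CPM in OP50 (SD, n = 3 each; −0.39 ± 0.0809, edgeR adjusted p = 0.00526). The hpo-9 gene was at −0.29 (edgeR adjusted p = 0.0114), and it was not called without OP50 replicate 3 (0.0524). Neither was called with library size only. The katanin subunit genes mei-1 and mei-2 fell by 0.74 and 0.85 on the log2 scale (edgeR adjusted p = 0.000594 and 0.000229). MEL-26 marks the mei-1 product for degradation in the embryo.

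Among the F-box adaptors, the fbxa- genes gave counts unlike these. Of 127 tested fbxa- genes 56 (44.1%) rose and 5 (3.94%) fell, beside 20% and 21% of all tested genes, with a median log2 fold change of 0.51. Of 13 tested fbxb- genes 1 rose and 1 fell (7.69% each, median 0.08). Of 22 tested fbxc- genes 4 rose and 4 fell (18.2% each, median 0.05), near the shares of all tested genes. Without OP50 replicate 1 there were 2 rises and 2 falls in fbxb-, and without FUDR replicate 2 or 3 or OP50 replicate 1 or 2 there were 2 falls in fbxc-. Among 10 tested core genes of the SCF ligases, to which F-box proteins belong, skr-3 (1.11), skr-4 (1.14), skr-5 (1.46) and the cullin gene cul-6 (1.19) rose. In the same list skr-7 (−0.88) and cul-1 (−0.44) fell, with 4 falls called by DESeq2 and without FUDR replicate 3. The list thus had 40% rises and 20% falls, beside 20% and 21% of all tested genes. Of all 18 tested skr- genes 3 rose and 3 fell (16.7% each, median −0.13), and DESeq2 called 6 falls. The difference between the F-box and the bath-, math- and btb- counts was not tested.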

How the data were processed

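Per the labels' protocols, poly(A)-selected RNA of whole worms was sequenced in 3 FUDR and 3 OP50 libraries. The deposited table holds raw read counts per gene, made with STAR and HTSeq on WBcel235 per the submitters' processing notes. The versions used, the annotation and the strand setting were not given in the sources used here. The 5 HTSeq summary rows (4.547% to 5.325% of counts per library) were left out. Symbols matched 44115 of 46926 identifiers; positions and exon lengths come from Ensembl release 115. Reads in genes that overlap or have near-identical copies may be lost or split. Protein and promoter sequences were not used here.

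All genes were fitted with edgeR 4.0.16 in R 4.3.3 (filterByExpr with minimum count 10 and total 15, TMM, robust quasi-likelihood F test, Benjamini-Hochberg with threshold 0.05). The fitting code was also run on simulated counts with the same spread setting for every gene and few changed genes. That run checks the code and not the calls made here. The standard error is the log2 fold change over the square root of F. Within groups, libraries differed by more than sampling noise (chi-square per degree of freedom at least 18.9). Alternatives were DESeq2 1.42.0, limma-voom (limma 3.58.1), other scalings and filters, the non-robust fit, a 1.5-fold test, a replicate block and leaving out each library.

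Members were taken by symbol alone, but the symbol families and the lists were chosen with earlier results of these data known. Named members are those called at 2-fold or more, up to 10 further called per family by p, the 3 most abundant per family by length, those nearest the threshold and math-33; other lists name up to 4 called genes, with mel-26 and cul-3. The list symbols uba-3 and gmcl-1 were not matched. Other genes named, such as neighbours of members, untested members, pseudogenes, members high in OP50 library 1, ned-8 and csn-2, were chosen after their values were seen.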

Additional observations from a re-analysis of the deposited data

Results flagged for a closer look

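Reads assigned to no gene, which enter no comparison above, took a larger share in FUDR: at least 0.426% of all counts in the FUDR libraries, against at most 0.335% in the OP50 libraries. Groups of 3 libraries are too small for a test of single libraries that stand apart.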

How the results depend on the processing

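Direction was kept by every member that the naming rule picked under every alternative, except bath-42 with library size only (0.06). The number of members that rose stayed within 1.5 times of 20, except 12 with a filter of 5 CPM in 3 libraries and 6 in the test against 1.5-fold; falls were 7, 6 and 1 with library size only, that filter and that test, against 12, and 7 among members that overlap no other gene's exons, a choice made after seeing the data. Leaving out 1 library gave 14 to 22 rises and 9 to 12 falls. By family, bath- rises numbered 6 with the 5 CPM filter and 4 against 1.5-fold, and 10 to 12 with 1 library left out. The bath- falls were 3 with library size only, 3 with the filter and 1 against 1.5-fold, and 4 to 5 with 1 library left out. The math- rises were 8 with DESeq2, 8 with limma-voom, 10 with upper quartile scaling, 11 with library size only, 3 with the filter and 2 against 1.5-fold, and 3 to 8 with 1 library left out. The math- falls were 4 with DESeq2 and 0 against 1.5-fold, and 2 to 4 with 1 library left out. The btb- rises were 5 with library size only and 0 against 1.5-fold, and 0 to 3 with 1 library left out. The btb- falls were 2 with upper quartile scaling, 2 with library size only, 1 with the filter and 0 against 1.5-fold, and 2 to 4 with 1 library left out. The cause was not tested, beyond the fewer genes or libraries that a filter or a left-out library leaves; the 5 CPM filter left 35 members. Of all genes tested in each setting, 29.2% rose and 14.6% fell with upper quartile scaling, and 34.2% and 11.3% with library size only. The shares were 25.8% and 25.6% with the 5 CPM filter, and 5.13% and 2.16% against 1.5-fold. With the replicate block 21 rose and 13 fell. Same-numbered libraries correlated at 0.0551, −0.0166 and 0.0576 in their deviations, so the numbers were not taken as pairs; replicate 2 of each group correlated best with another number. Depth limits members near 3 counts.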
